A study of Mus musculus with 6 samples.

Results

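The DnaJ genes, also called HSP40 genes, were examined in bulk RNA sequencing of mouse substantia nigra, a part of the midbrain where dopaminergic neurons lie. Every protein-coding gene of the mm10 annotation whose symbol is Dnaja, Dnajb or Dnajc followed by a number was taken, which gave 45 genes among the 55335 in the count tables. Class A had 4 members, class B had 13 and class C had 28, and 2 pseudogenes with such symbols were left out. There were 6 libraries from C57 mice, of which 3 are labelled WT by genotype and serve as controls, and 3 are labelled shDNAJB1, a name that stands for a short hairpin RNA against Dnajb1. The series was made to find what changes in this tissue after knockdown of Dnajb1. The labels used here give no age, no vector or promoter of the hairpin, and no word on whether control mice received a hairpin. Separate animals are not stated for the libraries within a group. All p-values thus measure the spread between these samples alone, and that spread may be technical. The library totals ran from 24541386 to 38468363 counts, and the 45 genes took 0.310% to 0.347% of each.

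J proteins carry a J domain, through which they bind an HSP70 chaperone and speed its hydrolysis of ATP, so that HSP70 closes on a client protein. Class A members have a J domain, a glycine-rich stretch and a zinc finger region, class B members lack the zinc finger, and class C members share only the J domain and otherwise differ widely. In neurons, J proteins act in refolding of misfolded proteins, in recycling of synaptic vesicles, in folding of secreted proteins in the endoplasmic reticulum and in protein import into mitochondria.

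A histidine-proline-aspartate triplet in the J domain is what HSP70 responds to. The coding bases around that triplet are shown for Dnajb1, its closest paralogs, the most highly expressed members of classes A and C, and Dnajc12. They are shown because these codons are what unites members that otherwise share little sequence. Each run below holds the 9 bases of the triplet in capitals with 15 bases on either side, from GENCODE transcripts on the GRCm38 build.
Dnajb1: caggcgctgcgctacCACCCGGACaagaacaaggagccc
Dnajb4: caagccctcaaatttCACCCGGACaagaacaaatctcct
Dnajb5: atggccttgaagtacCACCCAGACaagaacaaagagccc
Dnaja1: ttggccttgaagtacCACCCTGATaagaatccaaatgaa
Dnaja2: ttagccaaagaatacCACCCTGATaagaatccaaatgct
Dnajc5: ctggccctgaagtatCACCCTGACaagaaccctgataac
Dnajc6: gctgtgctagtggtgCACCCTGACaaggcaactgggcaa
Dnajc12: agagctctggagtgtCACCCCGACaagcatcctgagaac

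In Dnajb1, a gene on the plus strand at chr8:83608193-83612653, the codons lie at chr8:83608425-83608433 and the triplet starts at residue 32 of 340. On the plus strand they also lie at chr4:42953268-42953276 in Dnajb5, chr4:40723812-40723820 in Dnaja1, chr2:181547359-181547367 in Dnajc5, chr4:101639431-101639439 in Dnajc6 and chr10:63395830-63395838 in Dnajc12. On the minus strand they lie at chr3:152193486-152193494 in Dnajb4 and chr8:85553941-85553949 in Dnaja2. Over the 39 bases printed, Dnajb5 shared 30 bases with Dnajb1, Dnajb4 and Dnajc5 shared 26, and Dnaja2 and Dnajc6 shared 19. In the translated coding sequences the triplet was found in 4 of 4 class A, 12 of 13 class B and 28 of 28 class C members. Dnajb13 was the member where the search did not find it. The cysteine repeat of the zinc finger was found 4 times in each class A protein and in no class B protein. The triplet lay within the first 100 residues in 3 class A, 10 class B and 18 class C members, and in Dnajc6, a clathrin uncoating protein called auxilin, it started at residue 864.

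Over whole proteins Dnajb4 was the closest member to Dnajb1, with 64.2% identical aligned positions, and Dnajb5 followed with 63.0%. Dnajb13 had 47.9% and no other member over 30% (29.7% for Dnaja2). The longest run of bases shared by a Dnajb1 transcript was 25 bases with Dnajb4 and 15 bases with Dnajb5. The longest such run over the family was 37 bases, with Dnajb14. The treatment of multimapping reads was not stated in those sources that were used. Exons of 27 members overlapped those of no other annotated gene, Dnajb1, Dnajb4, Dnajb5, Dnajb12, Dnajc18 and Dnajc27 among them. The counts of the others are uncertain to the extent that reads of the overlap were split or shared. The longest overlap was that of Dnaja4 with Wdr61 on the opposite strand, over 1581 bases. Among other members described in detail, overlap with opposite-strand genes was 857 bases in Dnaja1, 749 in Dnajc1 and 153 in Dnaja3. It was 108 bases in Dnajc17, 99 in Dnajb14, 84 in Dnajc24 and 14 in Dnajb9. Overlap with same-strand genes was 170 bases in Dnajb14, 160 in Dnaja3 and 74 in Dnaja1.

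Most of the family was expressed in this tissue. Levels of different genes were compared in TPM (transcripts per 1000000), that is, counts divided by exonic length and scaled to each library, and 36 of the 45 members had a mean over 10 TPM. All 4 class A members were in that range, with 9 of 13 in class B and 23 of 28 in class C. Class C held 60.9% of the summed TPM of the family, class B 21.5% and class A 17.6%, while the median member was at 71.3 TPM in class A, 29.5 in class B and 21.6 in class C.

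The highest mean level was that of Dnajc6, at 149, 182 and 167 TPM in control 1, 2 and 3 and 104, 182 and 220 TPM in shDNAJB1 1, 2 and 3. Dnaja2, a general cytosolic partner of HSP70, was at 171, 160 and 168 TPM in controls and 152, 169 and 178 TPM in the libraries labelled shDNAJB1. Dnajc5, the cysteine string protein of synaptic vesicles, was at 160, 173 and 171 TPM and at 119, 167 and 182 TPM. Dnajc6 and Dnajc5 were lowest in shDNAJB1 1, while Dnaja2 was nearly even. The means of these 3 genes, 167 ± 38.9, 166 ± 8.97 and 162 ± 22.3 TPM (SD, n = 6), differed by less than the spread between libraries. Dnajc27 followed at 124 ± 11.2 TPM, Dnajc8, a splicing-related J protein, at 113 ± 4.37, and Dnaja1, a heat-inducible cytosolic member, at 102 ± 8.29. That order rests on the length used, since Dnajc5 has a short coding part in a long transcript. With coding length in place of exonic length Dnajc5 was at 817 TPM, Dnajc27 at 338, Dnaja1 at 325 and Dnajc6 at 144.

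**Figure D1:**
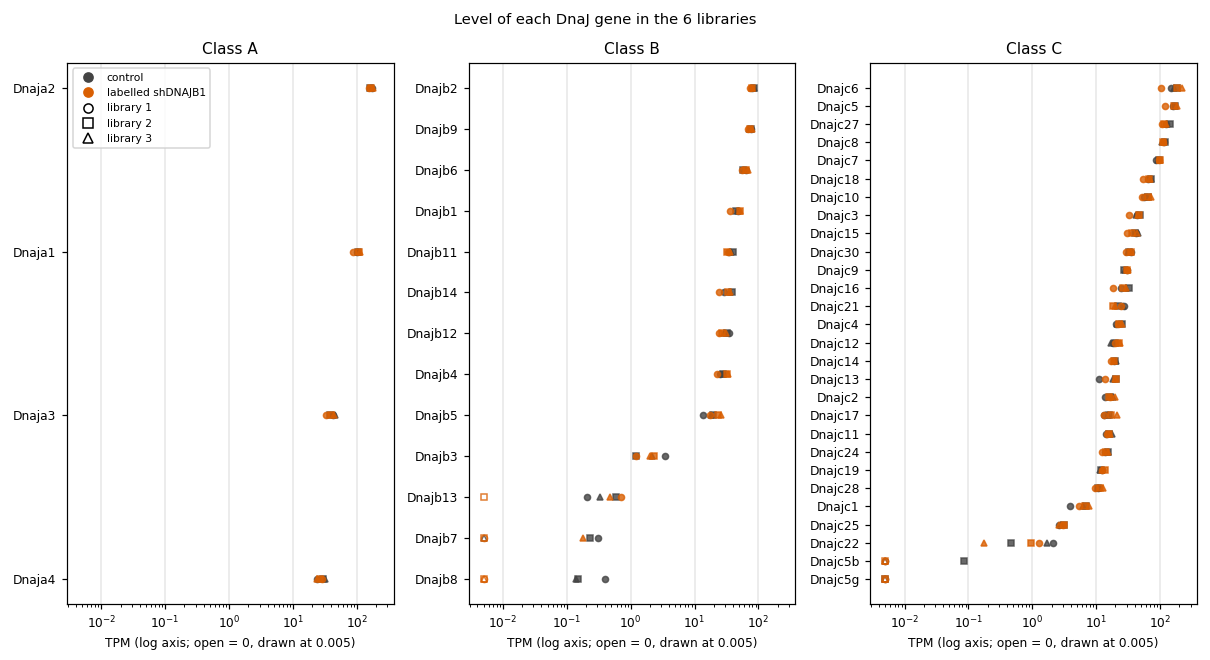
Level of each of the 45 members in TPM on a log axis, by class, with 1 point per library (grey control, orange labelled shDNAJB1, shapes for library 1, 2 and 3); open points are 0 and are drawn at 0.005. The points of most genes lie close together against the range over genes, 36 members have a mean over 10 TPM, and Dnajb1 is the 4th in class B.

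Dnajb1 itself was the 13th of the 45 members and the 4th of class B. Its level was 47.8, 45.1 and 48.1 TPM in control 1, 2 and 3 and 36.3, 50.7 and 52.2 TPM in shDNAJB1 1, 2 and 3. In class B it stood below Dnajb2, a neuronal suppressor of aggregation (80.1 ± 4.66 TPM, SD, n = 6), Dnajb9, an endoplasmic reticulum J protein of the unfolded protein response (73.8 ± 4.02), and Dnajb6, another aggregation suppressor (61.8 ± 5.08). Dnajb6 was above Dnajb1 in 6 of 6 libraries and their ranges did not overlap. Dnajc3 and Dnaja3, the next lower members at 42.9 ± 5.49 and 40.3 ± 4.61 TPM, had ranges that overlapped that of Dnajb1. Its closest paralogs were lower, with Dnajb4 at 28.0 ± 4.20 TPM and Dnajb5 at 19.6 ± 4.32 TPM. By coding length Dnajb1 was the 16th member and the 6th of class B, and Dnajb4, at 106 TPM by that measure, was above Dnajb1, at 64.2.

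At the low end, 4 members did not pass the filter on low counts and were not tested, and they include genes known mainly from testis. Dnajc5g had 0 counts in all 6 libraries, which allows a level of up to 0.0160 CPM (counts per 1000000) over their total. Dnajc5b had 1 count in control 2 and 0 elsewhere, Dnajb7 had 6, 3 and 0 counts in controls and 0, 0 and 3 in the libraries labelled shDNAJB1, and Dnajb8 had 8, 2 and 2 counts and then 0, 0 and 0. A count of 0 in 1 library allows 0.0780 to 0.122 CPM, and these limits cover counting error only. They were taken from raw library totals, without the scaling used for the other CPM values given here. Dnajb13 passed the filter with 8, 15 and 9 counts in controls and 18, 0 and 16 in the other group, and its difference could not be told from 0 at this depth. Dnajb3 and Dnajc22 also passed with means of 0.52 to 0.96 CPM in each group.

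The family was compared between the groups in CPM, scaled by TMM (which evens out differences in library make-up), with edgeR's quasi-likelihood test over 18870 genes and Benjamini-Hochberg adjustment. No member passed an adjusted p of 0.05 (0 of 41 tested, against 0.0% of all genes), and the smallest adjusted p of a member was 0.765. An unadjusted p under 0.05 was found for 2 members, Dnajb5 higher and Dnajc15 lower, which is 4.88% against 6.37% of all genes, and 1 lower member against 3.33% of all genes. DESeq2's Wald test, which called 0.322% of the genes it adjusted, and limma-voom, which called 0.0%, also called 0 members, with 3 members (7.32% against 6.80% of all genes) and 2 members (4.88% against 7.03%) at an unadjusted p under 0.05. No tested member differed by 2-fold, and the 95% interval lay inside a 2-fold change in either direction for 38 of 41. Among members at 10 CPM or more the largest log2 difference was 0.32 in size.

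**Figure D2:**
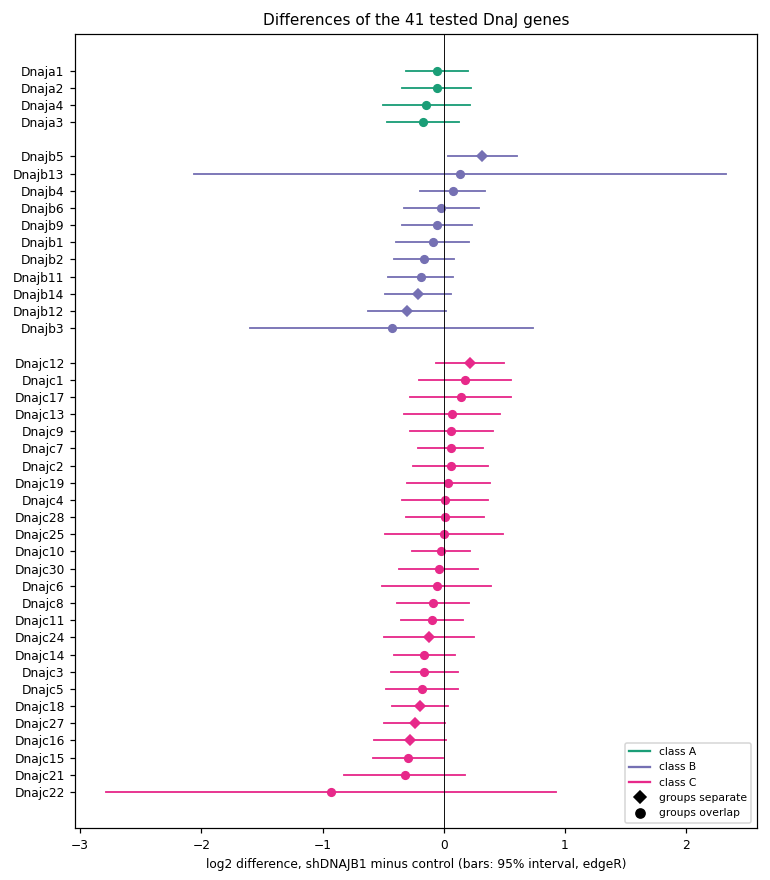
Log2 difference of each of the 41 tested members, libraries labelled shDNAJB1 minus control, with its 95% interval from edgeR; colours give the class, diamonds the members whose groups did not overlap, circles the others. All 4 class A members lie below 0, Dnajb1 lies in the middle of class B, and Dnajb5 and Dnajc15 are the members whose interval does not reach 0.

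The target was not detectably lower. Dnajb1 was at 59.8, 47.2 and 51.9 CPM in control 1, 2 and 3, and at 44.3, 52.4 and 52.5 CPM in shDNAJB1 1, 2 and 3. Its raw counts ran from 1092 in shDNAJB1 1 to 2180 in control 1, which gives a counting error of 2.14% to 3.03% per library. The highest value was in control 1 and the lowest in shDNAJB1 1, and the other 4 libraries lay between, so the groups overlap. The log2 difference was -0.09 (SE 0.13, n = 3 per group) with edgeR adjusted p = 0.909, and the 95% interval spans 76.2% to 116% of the control level. Permuting the group labels exactly, two-sided, gave p = 0.6, where 0.1 is the smallest that 3 against 3 can give. The second group is therefore called the libraries labelled shDNAJB1. Without control 1 the log2 difference was 0.01. Of the 41 tested members Dnajb1 had the 19th lowest log2 difference, and in class B the 6th lowest of 11, which makes it the median of its class.

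Its closest paralogs had values on the other side of 0. Dnajb5, a member of the same subfamily, was at 31.8, 37.2 and 36.8 CPM in control 1, 2 and 3 and at 39.1, 44.7 and 47.9 CPM in shDNAJB1 1, 2 and 3. All 3 libraries labelled shDNAJB1 were above all 3 controls, and the highest control was 37.2 against 39.1 for the lowest of the other group. The log2 difference was 0.32 (SE 0.12), the highest of the 41, with edgeR adjusted p = 0.765. Dnajb4, which is found in the cytosol and induced by heat, was at 84.1, 80.4 and 80.95 CPM in controls and 75.3, 91.9 and 91.0 CPM in the other group. Its groups overlapped, with shDNAJB1 1 below every control, and the log2 difference was 0.07 (SE 0.11), or 0.16 without shDNAJB1 1.

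**Figure D3:**
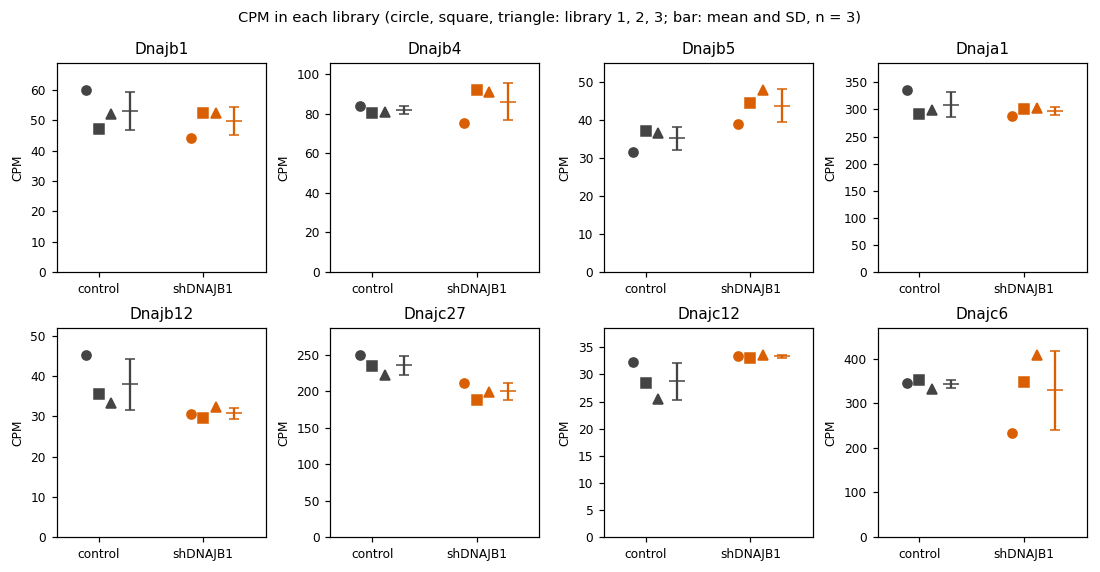
CPM of 8 members in each library (grey control, orange labelled shDNAJB1; circle, square and triangle are library 1, 2 and 3), with the mean and SD of each group (n = 3); axes start at 0. The groups overlap for Dnajb1, Dnajb4, Dnaja1 and Dnajc6 and are separate for Dnajb5, Dnajb12, Dnajc27 and Dnajc12.

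By class, the median log2 differences were -0.10 in class A, -0.09 in class B and -0.05 in class C. Values were lower in 4 of 4 class A members, 8 of 11 class B members and 15 of 26 class C members. Over the family 27 of 41 had lower values (65.9% against 49.2% of all genes), with a median of -0.06 against 0.01 over all genes. These counts rest on 1 library: control 1 held the highest CPM of 24 of the 41 members, and without it 20 of 41 had lower values, with a family median of 0.00 and class medians of -0.03, 0.01 and -0.02. Differences between the classes were not tested.

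Class A members are the general partners of HSP70. Dnaja1 was at 335, 291 and 300 CPM in control 1, 2 and 3 and 288, 302 and 302 CPM in shDNAJB1 1, 2 and 3, so that control 1 was alone above the rest. Dnaja2 was at 199, 155 and 168 CPM and then at 173, 163 and 166 CPM, again with control 1 highest. Dnaja3, the mitochondrial member, was at 63.8, 48.8 and 59.7 CPM and then at 48.4, 50.5 and 54.0 CPM. Control 2 lay among the libraries of the other group. Dnaja4, a heat-inducible member, was at 33.4, 34.97 and 38.6 CPM and then at 39.3, 30.65 and 27.1 CPM. In this gene shDNAJB1 1 was the highest of the 6 and shDNAJB1 3 the lowest. Log2 differences of the 4 ran from -0.17 (SE 0.13) for Dnaja3 to -0.05 (SE 0.11) for Dnaja1. Without control 1 those of Dnaja1 and Dnaja2 were 0.02 and 0.05. On leaving out 1 library Dnaja3 ran from -0.28 without control 2 to -0.08 without control 1. Dnaja4 ran from -0.31 without shDNAJB1 1 to -0.03 without shDNAJB1 3.

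The groups did not overlap for 8 of 41 members, 19.5% against 14.0% of all genes. Of these, 6 were lower in the libraries labelled shDNAJB1 (14.6% against 7.06% of all genes) and 2 were higher (4.88% against 6.98%). None passed the test, and the edgeR adjusted p of the 8 ran from 0.765 to 0.899.

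Among the 6 lower ones, Dnajb12, Dnajb14 and Dnajc18 code for J proteins anchored in the endoplasmic reticulum membrane. Dnajb12 (chromosome 10, 59879556 to 59899302, plus strand) was at 45.1, 35.5 and 33.2 CPM in control 1, 2 and 3 and 30.5, 29.5 and 32.2 CPM in shDNAJB1 1, 2 and 3. Control 1 stood above the other controls, and control 3 was close to shDNAJB1 3. The log2 difference was -0.30 (SE 0.14), and -0.15 without control 1. Dnajb14 was at 177, 196 and 191 CPM in controls and 144, 166 and 176 CPM in the other group, so that control 1 and shDNAJB1 3 nearly met, and its log2 difference was -0.21 (SE 0.12), or -0.14 without shDNAJB1 1. Dnajc18 was at 137, 131 and 134 CPM in controls and 111, 119 and 120.5 CPM in the other group, with a log2 difference of -0.19 (SE 0.10). Its groups were narrow, and the difference ran from -0.22 to -0.16 on leaving out 1 library.

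These 3 genes are also closest to one another in sequence. Dnajb12 shared 50.7% of aligned protein positions with Dnajb14 and 38.5% with Dnajc18, and Dnajc18 shared 42.3% with Dnajb14, while the next member was at 22.2% for Dnajb12 and 21.2% for Dnajc18. They were set side by side after their values were seen, so no test applies to the grouping.

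The other 3 lower ones were in class C. Dnajc27, a J protein with a small GTPase domain, was at 249, 234 and 223 CPM in control 1, 2 and 3 and 211, 188 and 199 CPM in shDNAJB1 1, 2 and 3. The log2 difference was -0.24 (SE 0.11). Dnajc16 was at 62.5, 69.0 and 63.4 CPM and then at 45.5, 54.6 and 60.3 CPM, with shDNAJB1 1 the lowest, and its log2 difference was -0.28 (SE 0.13), or -0.18 without that library. Dnajc24, which acts in diphthamide synthesis, was at 7.36, 6.82 and 6.95 CPM and then at 6.53, 6.39 and 6.51 CPM. Its log2 difference of -0.12 was smaller than its SE of 0.16.

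The 2 members higher without overlap were Dnajb5 and Dnajc12. Dnajc12, a co-chaperone that assists folding of tyrosine hydroxylase and other aromatic amino acid hydroxylases, was at 32.2, 28.4 and 25.4 CPM in control 1, 2 and 3 and 33.4, 33.1 and 33.5 CPM in shDNAJB1 1, 2 and 3. The 3 libraries labelled shDNAJB1 were almost equal while the controls spread, and control 1 came close to them. The log2 difference was 0.22 (SE 0.12), with edgeR adjusted p = 0.776, and 0.14 without control 3. No relation with the dopaminergic markers was detectable over the 6 libraries. Against the mean of 9 such markers Pearson's r was -0.14 (exact permutation p = 0.738) and Spearman's rho was -0.31 (exact permutation p = 0.564), with r = 0.52 without control 2 and shDNAJB1 3, the libraries farthest from the median. This was the only relation computed with that list.

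Of the 3 synaptic and endocytic members, Dnajc5 and Dnajc6 were lowest in shDNAJB1 1. Dnajc6 was at 344, 352 and 333 CPM in control 1, 2 and 3 and at 233, 347 and 407 CPM in shDNAJB1 1, 2 and 3. The first of these was the lowest and the last the highest of the 6, and without shDNAJB1 1 the log2 difference moved from -0.06 (SE 0.20) to 0.14. Dnajc5 was at 434, 393 and 400 CPM and then at 314, 375 and 396 CPM, with shDNAJB1 1 the lowest again. Its log2 difference was -0.18 (SE 0.13), and -0.09 without shDNAJB1 1. Dnajc13, an endosomal protein, had a log2 difference of 0.07 (SE 0.17). Of the 3, 2 thus had lower values, with a median of -0.06. Without control 1 it was 3 of 3, with a median of -0.08, so that Dnajc13 changed sign.

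Grouped by where they act, 6 of 8 endoplasmic reticulum members had lower values, with 0 passing the test and -0.11 as the median log2 difference (Dnajc18 was not in that list). Without control 1 it was 4 of 8, with a median of -0.04. The exceptions were Dnajc25, at a log2 difference of 0.00 (SE 0.21), and Dnajc1, at 17.9, 25.9 and 24.7 CPM in controls and 23.6, 25.5 and 28.3 CPM in the other group. Its log2 difference was 0.18 (SE 0.17), and 0.03 without control 1. Dnajb9 was at 75.6, 62.6 and 60.1 CPM and then at 67.5, 59.5 and 64.0 CPM, with overlapping groups. Of 5 mitochondrial members 4, all but Dnajc19, had lower values, with a median of -0.10 (3 of 5 and -0.08 without control 1). The lowest was Dnajc15, a protein of the inner mitochondrial membrane, at 107, 86.9 and 100 CPM in controls and 75.1, 76.4 and 88.2 CPM in the other group, where shDNAJB1 3 lay just above control 2. Its log2 difference was -0.30 (SE 0.12), with edgeR adjusted p = 0.765.

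Of the 4 heat-inducible cytosolic members 3, all but Dnajb4, had lower values, with a median of -0.07. Without control 1, Dnaja4 alone had a lower value and the median was 0.01. The 5 nuclear and ribosome-associated members had a median of 0.06, with Dnajc8 and Dnajc21 lower, and without control 1 the median was 0.02 with 1 lower. Among these Dnajc17 was at 6.89, 6.65 and 6.75 CPM in controls and 6.53, 7.07 and 8.74 CPM in the other group. Its log2 difference was 0.14 (SE 0.18), and 0.01 without shDNAJB1 3, the highest library. Of the aggregation suppressors Dnajb2 was at 132, 116 and 124 CPM and then at 118, 109 and 105 CPM. Its groups overlapped through control 2 and shDNAJB1 1, and the log2 difference was -0.16 (SE 0.11). Dnajb6 had a log2 difference of -0.02 (SE 0.13). Both were lower, with a median of -0.09, and without control 1 it was 1 of 2, with a median of 0.01. Of the members not named so far with a difference, Dnajc22, at 4 to 56 counts, had -0.93 (SE 0.80), Dnajb3 had -0.43 (SE 0.51), Dnajc21 had -0.32 (SE 0.22) and Dnajb11 had -0.19 (SE 0.12). Dnajc3, Dnajc14, Dnajc11, Dnajc8, Dnajc30, Dnajc10, Dnajc4, Dnajc28, Dnajc19, Dnajc2, Dnajc7 and Dnajc9 lay between -0.16 and 0.06, all with overlapping groups.

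The spread of the members between libraries was set beside that of all genes, with no test and no matching of levels. The coefficient of variation of CPM over the 6 libraries had a median of 10.3% over the 41 tested members, against 17.8% over all genes, and reached 71.7% in the low-count Dnajc22. Among genes with a mean of at least 10 CPM, a limit chosen after seeing the data, the median was 10.3% for 34 members and 12.7% for 10490 genes, and 25 of the 34 members were below the latter. Medians by class were 10.2%, 10.4% and 10.3% for A, B and C. Over the same libraries the summed CPM of dopaminergic markers ran from 1344 to 3337 in controls and 950 to 2543 in the libraries labelled shDNAJB1, and that of GABAergic markers from 1150 to 1499 and from 279 to 1660.

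**Figure D4:**
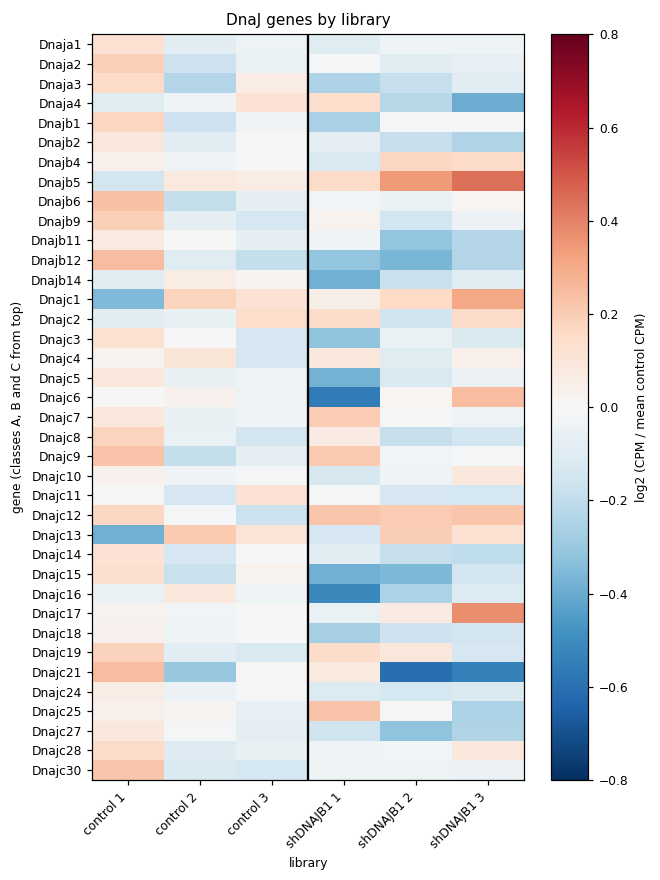
Log2 ratio of the CPM in each library to the mean control CPM, for the members with a mean of at least 1 CPM; rows are genes in class order, columns are the 6 libraries with a line between the groups, red is above and blue below the control mean. Control 1 is above the control mean for 31 of the 38 members, and Dnajb5, Dnajc12 and Dnajc1 are red in all 3 libraries labelled shDNAJB1. More members are blue in all 3, among them Dnajb1, Dnaja1, Dnaja2, Dnaja3, Dnajb2, Dnajc5 and Dnajc27.

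No marker of the cell-type lists passed the edgeR test at an adjusted p of 0.05. At an unadjusted p under 0.05 in that test there were 5 of 8 oligodendrocyte markers, all lower, which is 62.5% against 6.37% of all genes. The astrocyte list had 1 of 6, lower, and the endothelial list had 1 of 5, higher, so each of these rests on 1 gene. Summed levels overlapped between the groups for every list except the general neuronal one. Taken singly, 0 of the 5 general neuronal markers were without overlap, against 14.0% of all genes. The gap is thus one of the sum, in which the highest genes weigh most. General neuronal markers had lower values in 5 of 5 members, with a summed level of 4508 to 5320 CPM in controls and 4195 to 4291 CPM in the libraries labelled shDNAJB1. Oligodendrocyte markers had lower values in 8 of 8, with sums of 14230 to 15350 and 8263 to 15080 CPM, and astrocyte markers in 4 of 6, with sums of 2563 to 3785 and 2332 to 2780 CPM. Endothelial markers had higher values in 5 of 5, with sums of 244 to 288 and 248 to 408 CPM. The 408 CPM was that of shDNAJB1 1, while shDNAJB1 2 and 3, at 287 and 248 CPM, lay within the range of the controls. Microglial markers had lower values in 5 of 6, with sums of 148 to 294 and 94.3 to 325 CPM. Blood markers had lower values in 5 of 5, with sums of 121 to 379 and 105.5 to 221 CPM. Here the 379 CPM was that of control 1, against 206 and 121 CPM in control 2 and 3. Dopaminergic markers had lower values in 7 of 9 and GABAergic markers in 3 of 5, where 49.2% of all genes had lower values. Median log2 differences were -0.10 for general neuronal, -0.51 for oligodendrocyte, -0.17 for astrocyte and 0.17 for endothelial markers. They were -0.28 for microglial, -0.58 for blood, -0.02 for dopaminergic and -0.41 for GABAergic markers. The dopaminergic values ran from -0.45 to 0.74. No marker of these lists was at 0 in any library, and the part of these cell types in the values of the members was not tested. In tissue RNA, fewer cells of a type and less RNA per cell cannot be told apart.

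Over the 6 libraries, the members whose log2 CPM had the highest Pearson's r with that of Dnajb1 were Dnajb3, Dnaja1 and Dnaja3, out of 40 relations computed. By Spearman's rho Dnajc28 and Dnajc17, at 0.83 (exact permutation p = 0.0583, adjusted p = 0.495), stood above Dnajb3. Dnaja1 and Dnajb1 put the 6 libraries in the same order. For Dnaja1 Pearson's r was 0.93 (exact permutation p = 0.00139, adjusted p = 0.0556). Spearman's rho was 1.00 (exact permutation p = 0.00278, adjusted p = 0.111). Each p is the smallest that its two-sided test can give with 6 libraries. Over 40 relations a single relation at that p cannot reach an adjusted p under 0.05, so the correction could not decide here. Without control 1 and shDNAJB1 1, the libraries farthest from the median of Dnajb1, r was 0.99. Dnajb3, at 1.43, 0.42 and 0.77 CPM in controls and 0.49, 0.79 and 0.67 CPM in the other group, rests on 12 to 52 counts. Its r was 0.93 (exact permutation p = 0.0139, adjusted p = 0.278) and its rho 0.77 (exact permutation p = 0.103, adjusted p = 0.495), with r = 0.95 without those libraries. Dnaja3 had r = 0.85 (exact permutation p = 0.0292, adjusted p = 0.389) and rho = 0.83 (exact permutation p = 0.0583, adjusted p = 0.495), and r was 0.57 without them, when Dnajc9, at 0.97, was above both Dnajb3 and Dnaja3.

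The partners of J proteins showed no call either. Of 15 HSP70 and HSP110 genes 8 had lower values and 0 passed, and their median log2 difference was -0.05. Hspa4l, of the HSP110 type that exchanges nucleotide on HSP70, was at 379, 408 and 448 CPM in controls and 305, 328 and 286 CPM in the other group, a log2 difference of -0.43 (SE 0.12). Hspa12a, a distant HSP70 relative, was at 249, 223 and 241 CPM and then at 165, 192 and 208 CPM, and its log2 difference was -0.34 (SE 0.12). The edgeR adjusted p was 0.765 for both. They were picked as the genes with the smallest unadjusted p of the 15. The next by that order, Hspa1l, had a higher value, at a log2 difference of 0.34 (SE 0.20), as did 7 of the 15 in all. Of 10 nucleotide exchange factors 6 had lower values, with a median of -0.04, and of the 4 tested J-domain genes with other names 3 had lower values, among them Sec63, the J protein of the endoplasmic reticulum translocon, at -0.21 (SE 0.10). Of the 4 heat shock factors 3 had higher values, with a median of 0.14 and 0 passing. Hsf5, at 0.231 to 1.00 CPM, had a log2 difference of -0.85 (SE 0.51), Hsf1 had 0.29 (SE 0.14) and Hsf4 had 0.05 (SE 0.20). Hsf2 was at 26.4, 31.7 and 30.3 CPM in controls and 35.1, 33.4 and 35.4 CPM in the other group, a log2 difference of 0.23 (SE 0.11) with edgeR adjusted p = 0.770.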

How the data were processed

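Raw counts per Ensembl gene were deposited, 1 file for each of 6 libraries. Libraries came from Trizol-isolated total RNA by a stranded TruSeq kit, per the labels' protocols. STAR 2.5.3a, FastQC 0.11.5, DESeq 1.16.1 and Cuffnorm are named with build mm10, per the submitters' processing notes. How genes were counted, with which annotation release and strand option, was not stated in those sources that were used. Symbols, lengths and positions came from GENCODE M21, which matched 55154 of 55335 identifiers.

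Genes passing filterByExpr (minimum count 10, minimum total 15) were scaled by TMM and tested with edgeR 4.0.16 in R 4.3.3, at a threshold of 0.05. SE is the log2 difference over the square root of F. TPM used the union of exons. CPM in figures and text is TMM-scaled, except the limits for libraries without counts of a member. Correlations used log2 CPM with a prior count of 2. Identities came from translated coding sequences, aligned globally with Biopython 1.88. Permutation tests used scipy 1.17.1. The procedure was tested on simulated data. The members, the lists and the tests were chosen with earlier results of these data known. Members given in each library were Dnajb1, its 2 closest paralogs, the 2 highest and the 2 with the smallest p in each class, the 5 with the smallest p in each direction, the 3 most like Dnajb1, and Dnajc12. Dnajb14, Dnajc24 and the low-count members were added after their values were seen. Alternatives were other scalings and filters, DESeq2 1.42.0, limma-voom (limma 3.58.1), a replicate block, coding length and leaving out each library.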

Additional observations from a re-analysis of the deposited data

How the results depend on the processing

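No member was called under any alternative run, though DESeq2 gave 1 member no adjusted p. Members with an unadjusted p under 0.05 numbered 2, against 1 with upper-quartile scaling and with the stricter filter (1 CPM in 3 libraries), 4 with the replicate block (9.76% against 7.73% of all genes), and 0 to 5 on leaving out 1 library. The 0 came without shDNAJB1 2, where all genes gave 3.88%, and the 5 without shDNAJB1 1, where they were 12.2% of members against 12.9% of all genes. The Dnajb1 log2 difference was -0.170 to 0.0110 on leaving out 1 library and changed sign without control 1. Among members given by library, leaving out control 1 also reversed Dnaja1 (range on leaving out 1 library -0.0960 to 0.0160), Dnaja2 (-0.136 to 0.0543), Dnajb9 (-0.114 to 0.0592) and Dnajb3 (-0.759 to 0.141). Leaving out shDNAJB1 1 reversed Dnajc6 (-0.240 to 0.135). Of 22 members given by library, 16 moved by over 1.5 times in some such setting. The class B median of -0.0919 was -0.168 with no low-count filter, -0.162 in limma-voom and -0.170 to 0.0110 on leaving out 1 library. Lower members numbered 20 to 31 on leaving out 1 library, against 27. Dnajb1 ranked 16 by coding length and 14 in control 2 alone, against 13. The cause was not tested for these. No pairing by title number was detected, as same-numbered libraries had deviations correlated at 0.04, -0.02 and 0.08. Libraries with different numbers were not compared in this way, so a pairing is not excluded. The replicate block gave -0.0892 for Dnajb1.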
